A study of Mus musculus with 25 samples.

Results

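Livers of 5 mice taken 24 hr after concanavalin A and the prostaglandin D2 receptor agonist BW245C were compared with livers of 5 other mice taken 3 hr after the same injections, across all 15104 genes that could be tested. These 10 of the 25 samples in the series were chosen by their titles alone. All mice were females of the C57BL/6NcrSlc strain, and every treated mouse received concanavalin A (ConA) at 10 mg/kg and, 15 min later, an intraperitoneal injection of either 1 mg/kg BW245C or vehicle. The other samples are 5 untreated livers and 5 livers at each of the same times after ConA and vehicle, and they serve here only as reference levels and as a parallel time course. Ages were not among the labels, no group received BW245C without ConA, and each liver was homogenised whole, so that fewer cells of a type and less RNA per cell cannot be told apart.

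Concanavalin A is a plant lectin that cross-links receptors on T cells and produces an immune hepatitis in mice, in which T and NKT cell cytokines, Kupffer cells, the sinusoidal endothelium and incoming neutrophils all take part. BW245C is a synthetic ligand of DP1, the product of Ptgdr, a receptor coupled to the G protein that raises cAMP. In an injured liver, early response genes and chemokines are induced first, hepatocyte functions are then lowered, and hepatocytes that survive can re-enter the cell cycle.

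The 2 times differed over most of the measured genome. At an adjusted p under 0.05, 5446 genes were higher at 24 hr and 5104 were lower, which is 36.1% and 33.8% of the genes tested. Of these, 2324 were higher and 1612 were lower by at least 2-fold, or 15.4% and 10.7% of all. Counts of list members higher or lower at 24 hr are to be read against the 36.1% and 33.8% of all genes. In 27.6% of genes all 5 mice at 24 hr lay above all 5 mice at 3 hr, and in 24.2% all lay below. The median difference over all genes was 0.010 on the log2 scale. With the authors' own array scaling in place of the 75th percentile of each array, the same test called 7183 genes higher and 3615 lower, so the share of higher calls was 66.5% instead of 51.6%, and the median over all genes moved by 0.213. Small differences are therefore relative to that choice, and the differences named below are mostly larger than it.

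Across genes, arrays of the same group correlated at 0.9869 to 0.9948 at 3 hr and at 0.9791 to 0.9915 at 24 hr, against 0.9276 to 0.9531 between the times. Between 52.2% and 61.6% of the spots of an array were well above background, and 0 spots were saturated. All 5 arrays of the 3 hr group lay on 1 slide, and the 24 hr arrays lay on 3 others, with mice 1, 2 and 4 on the same slide and mice 3 and 5 on 1 other slide each, mouse 3 beside vehicle and untreated arrays and mouse 5 with no other array. No slide held both groups, so there is no value within a slide. With slide as a block, which the vehicle arrays on the same slides make possible, 3940 genes were higher and 4297 lower, or 26.1% and 28.4%, and 7747 genes were called in the same direction in both fits. The array of 24 hr mouse 5 adds nothing to a blocked difference, since it is alone on its slide, so blocked values rest on 4 mice at 24 hr. They also rest on few linking arrays. The slide of mice 1, 2 and 4 shares only the 24 hr vehicle group with the 3 hr slide, which holds 1 such array. The slide of mouse 3 shares the 3 hr vehicle group with it, at 2 arrays on each. Where a named gene lost its call with that block, or gained one, its blocked value is given. Untreated arrays shared a slide with 1 of the 10 arrays, so distances from the untreated level carry the slide as well.

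Of the 15 genes chosen for the largest fitted falls from 3 to 24 hr, 4 were chemokines, Ccl1, Cxcl1, Cxcl2 and Cxcl10, and the others were of mixed kinds. Levels are given as log2 signal relative to the 75th percentile of the array, in the order of mouse 1 to 5, and differences as 24 hr minus 3 hr with 1 standard error of the fit, for 5 mice at each time. Ccl1, a chemokine made by activated T cells, stood at 1.51, 1.97, 1.22, 1.81 and 0.88 in the 3 hr mice and -4.70, -5.38, -4.71, -4.68 and -6.48 in the 24 hr mice. It was well above background in every 3 hr mouse and in no 24 hr or untreated mouse, and the fall was at least 67.1-fold (log2 -6.66 ± 0.50, adjusted p = 7.19e-11). Such a bound sets the mean of the bright group against, for each dim array, the lowest signal of any probe well above background or the probe's own signal, whichever is higher. Where the text gives fewer than 5 mice of a group as above background, the fitted difference rests partly on signals near the background.

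Tnfaip3, which encodes the A20 enzyme that shuts off NF-kappaB signalling, measured 6.30, 6.25, 6.23, 6.11 and 5.69 in the 3 hr mice and 1.45, 0.76, 0.86, 1.62 and 1.65 in the 24 hr mice. The groups were far apart, and the difference was -4.85 ± 0.19 (adjusted p = 7.85e-15), or 28.9-fold. At 24 hr the gene still lay above the untreated mean of -0.59, by 1.85 ± 0.19 (adjusted p = 2.06e-08). Ripk2, an adaptor kinase of NOD receptors, fell by 32.4-fold (log2 -5.02 ± 0.22, adjusted p = 2.26e-14), and Tlr2, the receptor for bacterial lipoproteins, fell by 24.7-fold (log2 -4.63 ± 0.24, adjusted p = 3.39e-13). Rnd1, a small GTP-binding protein that loosens cell adhesion, went from 9.05, 8.82, 9.01, 8.81 and 8.42 at 3 hr to 3.21, 2.58, 3.37, 3.34 and 4.16 at 24 hr, close to its untreated level of 3.17 ± 0.28 (SD, n = 5).

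In the list of NF-kappaB feedback genes and targets 14 of the 16 members tested were lower at 24 hr and 1 was higher, where 33.8% of all genes were lower and 36.1% higher. The median difference was -2.12, against 0.010 for all genes. The 1 higher member was Traf1, at 0.83 ± 0.17 (adjusted p = 0.000185). Bcl3, a nuclear partner of NF-kappaB, fell by 2.69 ± 0.12 (adjusted p = 2.09e-14), and Icam1, an adhesion molecule for leukocytes, fell by 3.66 ± 0.21 (adjusted p = 1.43e-12). Birc3, an inhibitor of apoptosis, fell by 2.49 ± 0.15 (adjusted p = 1.98e-12), and Nfkbia, which holds NF-kappaB in the cytoplasm, fell by 1.98 ± 0.12 (adjusted p = 3.35e-12). Cflar, which blocks caspase 8, had the largest p of the list (0.10 ± 0.12, adjusted p = 0.478), although the mean over its probes gave -0.48, adjusted p = 0.000682.

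Immediate early genes, the transcription factors switched on within minutes of a stimulus, were lower in 18 of 22 members and higher in 2, with a median of -1.54. Zfp36, whose product destabilises cytokine mRNAs, held levels of 2.60, 2.30, 2.57, 3.43 and 2.28 in the 3 hr mice and -0.37, 0.16, -1.01, -0.61 and -0.35 in the 24 hr mice. The difference was -3.07 ± 0.27 (adjusted p = 1.02e-09), and the untreated level was -0.67 ± 0.18 (SD, n = 5). Maff and Egr2 fell, with differences of -2.81 ± 0.31 (adjusted p = 5.03e-08) and -2.81 ± 0.33 (adjusted p = 8.39e-08), yet at 24 hr they remained 2.99 and 3.64 above untreated on the log2 scale. Both members that rose instead were Fosl1, a late AP-1 subunit (2.15 ± 0.29, adjusted p = 1e-06), and Klf4 (0.59 ± 0.23, adjusted p = 0.0249), the latter lost with slide as a block (0.54, adjusted p = 0.235) and without any 1 of 3 of the 25 mice (adjusted p up to 0.1). Fosl1 was well above background in 2 of 5 mice at 3 hr and in all 5 at 24 hr. Klf2, a shear-stress factor of endothelium, had the largest p (0.024 ± 0.18, adjusted p = 0.911).

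Chemokines that draw neutrophils fell steeply. Cxcl2 measured 3.03, 2.89, 2.39, 2.68 and 1.28 in the 3 hr mice and -2.27, -4.19, -3.10, -1.42 and -0.86 in the 24 hr mice. Cxcl2 fell by 4.82 ± 0.45 (adjusted p = 3.26e-09). Cxcl1 measured 6.12, 6.48, 6.87, 6.79 and 6.44 in the 3 hr mice and 2.42, 1.37, 2.04, 2.58 and 2.68 in the 24 hr mice. Cxcl1 fell by 4.32 ± 0.24 (adjusted p = 8.11e-13). No 24 hr level reached the lowest 3 hr level, which was a condition of choosing both genes. Both genes were still above the untreated means of -6.38 and -1.94 in every 24 hr mouse. Cxcl3 fell by 3.27 ± 0.49 (adjusted p = 3.34e-06), and was well above background in 2 of 5 mice at 24 hr. Csf1, the growth factor of macrophages, fell by 0.60 ± 0.18 (adjusted p = 0.0048), a call lost with slide as a block (-0.50, adjusted p = 0.161). Probes for Csf1 disagreed, since the mean over them gave 0.69, adjusted p = 0.000147. Cxcl5 and Csf3, the granulocyte growth factor, did not pass the test (-0.44 ± 0.31, adjusted p = 0.2, and -1.27 ± 0.94, adjusted p = 0.235), although Csf3 passed without untreated mouse 5, whose array lies outside both groups (log2 -1.27, adjusted p = 0.0269).

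Among ligands of the lymphocyte receptor CXCR3, the pair of tested genes behaved differently. Cxcl10 stood at 10.00, 10.01, 10.24, 10.16 and 9.83 in the 3 hr mice and 5.81, 4.20, 5.17, 5.56 and 6.58 in the 24 hr mice, a 24-fold fall (-4.58 ± 0.28, adjusted p = 3.35e-12). Cxcl9 stood at 8.86, 8.78, 8.74, 8.88 and 7.86 in the 3 hr mice and 8.21, 7.88, 8.78, 8.60 and 8.50 in the 24 hr mice, and its difference of -0.23 ± 0.20 (adjusted p = 0.308) did not pass the test. Without 3 hr mouse 5, the lowest of its group, it did (log2 -0.42, adjusted p = 0.0428). Both remained far above the untreated livers at 24 hr, by 4.09 for Cxcl10 and 6.51 for Cxcl9 on the log2 scale.

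CC chemokines were lower in 9 of 14 members and higher in 2. Ccl17, a ligand of CCR4 on T cells, fell by 4.19 ± 0.33 (adjusted p = 1.42e-10). Ccl11, which attracts eosinophils, fell by 2.44 ± 0.26 (adjusted p = 2.7e-08), and Ccl4, made by activated macrophages and lymphocytes, fell by 2.44 ± 0.28 (adjusted p = 8.03e-08). The monocyte chemokines Ccl2 and Ccl7 had differences of -1.17 ± 0.36 (adjusted p = 0.0061) and -1.40 ± 0.34 (adjusted p = 0.000974), and were still 5.35 and 6.39 above untreated. The call of Ccl2 was lost with slide as a block (-1.16, adjusted p = 0.0961). The 2 members that rose were Ccl8 (2.68 ± 0.36, adjusted p = 7.08e-07) and Ccl5, a product of cytotoxic lymphocytes (1.65 ± 0.23, adjusted p = 9.99e-07). Ccl6 had the largest p (-0.0084 ± 0.29, adjusted p = 0.981).

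**Figure D1:**
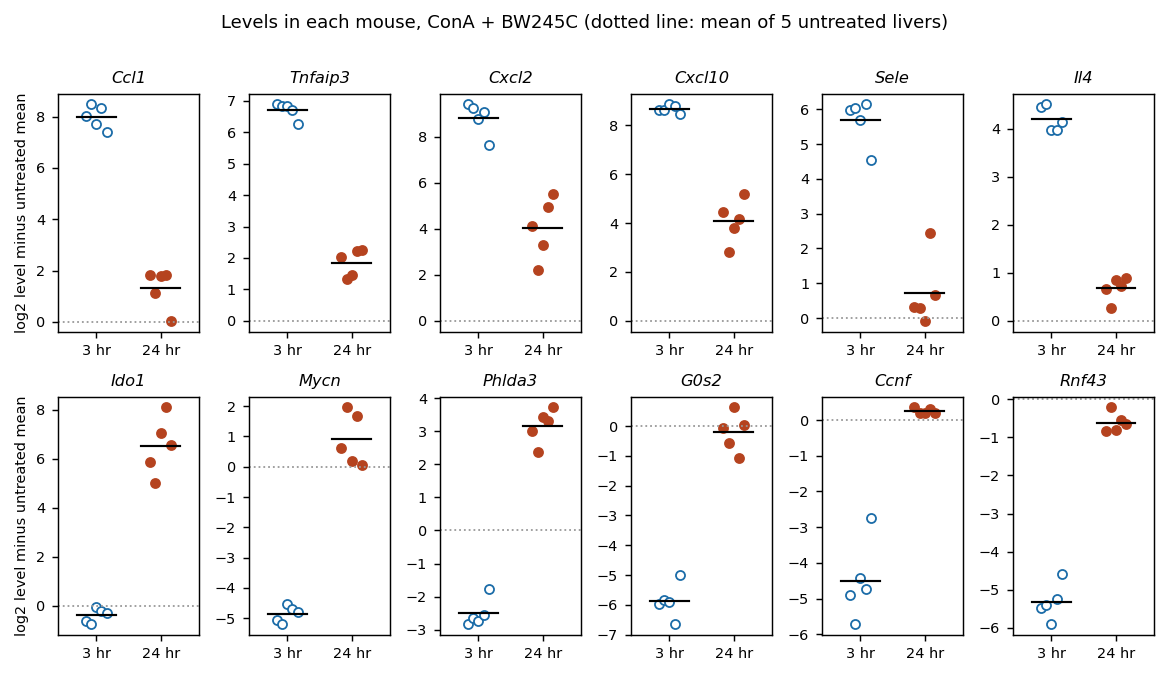
Log2 level of 12 genes in each mouse, relative to the mean of the 5 untreated livers, for ConA + BW245C at 3 hr (open circles) and 24 hr (filled circles), with group means as bars. The upper row holds genes that were lower at 24 hr and the lower row genes that were higher. In each of the 12 panels the mice of the 2 times do not overlap, which for every gene but Il4 was a condition of its choice.

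T cell cytokines were high at 3 hr and lower a day later. Il4 measured 0.18, 0.23, -0.31, -0.30 and -0.14 in the 3 hr mice and -3.61, -4.01, -3.42, -3.56 and -3.38 in the 24 hr mice. Il4 fell by 3.53 ± 0.15 (adjusted p = 2.26e-14), and at 24 hr it lay 0.68 above untreated. Ifng, which encodes interferon-gamma, measured 2.17, 2.20, 1.38, 1.72 and 1.19 in the 3 hr mice and -1.58, -2.27, -1.68, -1.47 and -0.99 in the 24 hr mice. Ifng fell by 3.33 ± 0.25 (adjusted p = 7.68e-11), and at 24 hr it was still 3.00 above untreated. Il2, the T cell growth factor, was well above background in all mice at 3 hr and in none at 24 hr, at least 8.94-fold lower (-4.52 ± 0.32, adjusted p = 2.74e-11). Csf2, the granulocyte-macrophage growth factor, was likewise below the background limit at 24 hr and at least 3.22-fold lower (-3.29 ± 0.19, adjusted p = 1.33e-12).

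Tnf measured 0.61, 0.78, -0.30, 0.16 and 0.028 in the 3 hr mice and -1.66, -3.30, -1.51, -1.48 and -0.81 in the 24 hr mice. Tnf fell by 2.01 ± 0.38 (adjusted p = 5.99e-05), and remained 3.69 above untreated. Il6 measured -0.0028, 0.65, -0.61, -0.062 and -0.65 in the 3 hr mice and -0.88, -1.04, -2.17, -0.81 and -1.24 in the 24 hr mice. Its groups did not overlap, and its difference of -1.09 ± 0.34 (adjusted p = 0.00694) was not called with slide as a block (-1.05, adjusted p = 0.119). Il10, the regulatory cytokine, measured -4.12, -3.87, -4.63, -3.19 and -3.67 in the 3 hr mice and -4.33, -4.81, -4.84, -4.06 and -4.21 in the 24 hr mice, above background in 4 of 5 mice at 3 hr and 2 of 5 at 24 hr, and its groups overlapped. The Il10 difference of -0.55 ± 0.24 (adjusted p = 0.0471) was also lost with that block (-0.44, adjusted p = 0.363) and without any 1 of 13 of the 25 mice (adjusted p up to 0.166).

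Over the cytokine list, 14 of 22 members were lower and 4 higher. The higher ones were Ltb, a lymphoid tissue cytokine (2.19 ± 0.24, adjusted p = 4.22e-08), Il33, an alarm signal of damaged tissue (2.02 ± 0.24, adjusted p = 1.61e-07), and, with smaller differences, Ebi3 and Il27, at 0.58 and 0.54. The call of Ebi3 was lost with slide as a block (0.53, adjusted p = 0.27) and without any 1 of 6 of the 25 mice (adjusted p up to 0.118). The JAK-STAT list had 12 lower and 6 higher of 19. Socs1, Socs3 and Cish, which feed back on cytokine receptors, fell, with differences of -3.62 ± 0.22 (adjusted p = 3.47e-12), -2.82 ± 0.24 (adjusted p = 6.05e-10) and -3.16 ± 0.31 (adjusted p = 7.4e-09), while Jak3, the kinase of lymphocyte cytokine receptors, rose by 1.72 ± 0.13 (adjusted p = 1.17e-10). Stat5a fell by 1.89 ± 0.13 (adjusted p = 2.37e-11), and Pias1 had the largest p (0.17 ± 0.081, adjusted p = 0.062), passing without any 1 of 2 of the 25 mice (adjusted p down to 0.0154).

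In the endothelial list 9 members were lower and 6 higher of 20, where 33.8% and 36.1% of all genes were. With slide as a block 6 were lower and 6 higher, where 28.4% and 26.1% of all genes were. Sele, the E-selectin gene, a marker of activated endothelium, measured -0.69, -0.65, -0.99, -0.54 and -2.14 in the 3 hr mice and -6.37, -6.41, -6.76, -4.24 and -6.02 in the 24 hr mice. Sele fell by 4.96 ± 0.36 (adjusted p = 4.87e-11), and it was well above background in 1 of the 5 mice at 24 hr. Vcam1 measured 5.88, 5.78, 5.18, 5.73 and 4.75 in the 3 hr mice and 2.98, 2.58, 3.11, 2.83 and 3.19 in the 24 hr mice. Vcam1 fell by 2.52 ± 0.20 (adjusted p = 1.99e-10). F3, tissue factor, fell by 2.75 ± 0.34 (adjusted p = 1.96e-07). The endothelial growth signal Apln, by contrast, was below the background limit in every 3 hr mouse and was at least 4.28-fold higher at 24 hr (3.52 ± 0.43, adjusted p = 1.91e-07). Pgf, a relative of VEGF, had the largest p (-0.11 ± 0.16, adjusted p = 0.545).

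Ido1, which starts tryptophan breakdown and restrains T cells, was one of several genes measured at 24 hr alone, so that their rises are bounds and have no order. Its levels were -6.38, -6.52, -5.81, -5.98 and -6.06 in the 3 hr mice and 0.084, -0.75, 1.29, 2.32 and 0.79 in the 24 hr mice. No 3 hr or untreated liver was well above background and all 5 at 24 hr were, a rise of at least 31.7-fold (6.89 ± 0.51, adjusted p = 5.88e-11). Reg3g, a secreted antimicrobial lectin, and A2m, the protease inhibitor alpha-2-macroglobulin, had the same pattern, at least 13.1-fold and 19.7-fold higher (5.36 ± 0.70, adjusted p = 4.74e-07, and 5.14 ± 0.45, adjusted p = 9.6e-10). Gpnmb, a glycoprotein of lipid-laden macrophages, was at least 6.2-fold higher (4.60 ± 0.39, adjusted p = 5.68e-10), with -1.24, -3.10, -1.44, -1.35 and -0.90 in the 24 hr mice.

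Other genes of the 15 chosen for the largest fitted rises were well above background in all untreated livers, in no 3 hr mouse and again in all 24 hr mice. Mycn, a MYC-family transcription factor, stood at -6.57, -6.69, -6.03, -6.18 and -6.28 in the 3 hr mice and -0.86, 0.46, -1.29, 0.18 and -1.45 in the 24 hr mice, with an untreated level of -1.495 ± 0.37 (SD, n = 5), and was at least 12.5-fold higher at 24 hr (5.75 ± 0.32, adjusted p = 7.76e-13). Sox18, a transcription factor of vascular endothelium, went from -4.84, -6.71, -6.07, -6.24 and -6.12 at 3 hr to -0.30, -0.70, -0.58, -0.98 and -0.36 at 24 hr, against -0.27 ± 0.14 (SD, n = 5) untreated, and was at least 12.6-fold higher (5.41 ± 0.23, adjusted p = 2.09e-14). Fgf21, the stress hormone of hepatocytes, was at least 9.26-fold higher (4.97 ± 0.28, adjusted p = 1.19e-12), and Ihh, the hedgehog ligand made by pericentral hepatocytes, at least 12.3-fold (5.36 ± 0.32, adjusted p = 2.72e-12).

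The zinc finger gene Zfp324 and the secretory cell factor Bhlha15, with the same pattern, were at least 6.44-fold and 14.8-fold higher (4.77 ± 0.20, adjusted p = 1.55e-14, and 4.65 ± 0.48, adjusted p = 1.3e-08). G0s2, an inhibitor of the fat-splitting enzyme ATGL, stayed above background throughout and measured -2.83, -2.71, -2.75, -3.50 and -1.85 in the 3 hr mice and 3.07, 2.58, 3.76, 2.05 and 3.19 in the 24 hr mice, with 3.14 ± 0.43 (SD, n = 5) in untreated mice. It rose 50.5-fold (5.66 ± 0.28, adjusted p = 2e-13). Hic1, a repressor and p53 target, rose by 4.76 ± 0.32 (adjusted p = 1.51e-11), and Rnf43, a ubiquitin ligase that limits Wnt receptors, by 4.71 ± 0.23 (adjusted p = 1.3e-13).

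Phlda3, a p53 target that restrains the kinase AKT, overshot instead. It measured -3.32, -3.14, -3.24, -3.04 and -2.28 in the 3 hr mice and 2.51, 1.86, 2.93, 2.81 and 3.22 in the 24 hr mice, a 50.8-fold rise (5.67 ± 0.20, adjusted p = 1.99e-15), and at 24 hr lay 3.16 ± 0.20 (adjusted p = 1.14e-11) above the untreated mean of -0.50. In the p53 and apoptosis list 11 members were higher and 7 lower of 21, where 36.1% and 33.8% of all genes were. Bax, which opens the mitochondrial membrane, rose by 1.59 ± 0.12 (adjusted p = 6.36e-11), and Ccng1 and Zmat3, also p53 targets, by 1.46 ± 0.10 (adjusted p = 2.61e-11) and by 1.29 ± 0.12 (adjusted p = 3.38e-09). Fas, the death receptor, fell by 1.68 ± 0.13 (adjusted p = 2.37e-10).

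Genes of the integrated stress response and the endoplasmic reticulum stress response were higher in 16 of 24 members and lower in 3. Ddit3, the CHOP transcription factor, rose by 2.73 ± 0.17 (adjusted p = 3.35e-12), and the serine synthesis enzymes Psat1 and Phgdh by 3.31 ± 0.28 (adjusted p = 4.93e-10) and 1.80 ± 0.18 (adjusted p = 6.63e-09). Xbp1, the folding-stress factor, fell by 1.15 ± 0.12 (adjusted p = 1.34e-08). Atf5 had the largest p (0.025 ± 0.18, adjusted p = 0.91). With slide as a block 12 members were higher and 3 lower, against 26.1% and 28.4% of all genes.

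Genes of mitosis rose almost without exception among those tested: 28 of the 30 members were higher at 24 hr and 1 was lower, with a median of 2.61. Another 4 members of the list were above background on too few arrays to be tested. A member dim in the untreated and 3 hr livers could be tested only if it was above background at 24 hr. The count of higher members is therefore not free of that filter. The median of the list, taken in each mouse relative to the untreated mean, was -0.89 to -0.056 at 3 hr and 1.94 to 2.37 at 24 hr. Plk1, a kinase that drives entry into mitosis, measured -3.08, -3.06, -2.67, -2.75 and -3.84 in the 3 hr mice and 0.76, 0.10, 0.65, 0.42 and 0.71 in the 24 hr mice. Plk1 rose by 3.61 ± 0.28 (adjusted p = 1.23e-10). Bub1, a spindle checkpoint kinase, was below the background limit in every 3 hr and untreated mouse and at least 2.67-fold higher at 24 hr (3.30 ± 0.19, adjusted p = 1.18e-12). Aurka, which builds the spindle poles, rose by 3.25 ± 0.25 (adjusted p = 1.32e-10).

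Ccnf, the cyclin F gene, stood at -2.86, -3.67, -2.39, -2.69 and -0.72 in the 3 hr mice and 2.39, 2.23, 2.23, 2.35 and 2.23 in the 24 hr mice, a 27-fold rise (4.75 ± 0.35, adjusted p = 7.04e-11), but its 24 hr level was close to the untreated 2.04 ± 0.30 (SD, n = 5). Mouse 5 was the highest of the 3 hr group. Cks2, a partner of the mitotic kinase CDK1, rose by 1.80 ± 0.10 (adjusted p = 7.92e-13) and also ended near its untreated level of 0.50 ± 0.071 (SD, n = 5). The lower member was Tpx2, a spindle assembly factor (-1.24 ± 0.37, adjusted p = 0.0051), whose call was lost with slide as a block (-0.53, adjusted p = 0.201) and whose probes disagreed, since their mean gave 1.01, adjusted p = 0.000457. Pttg1, securin, had the largest p (0.14 ± 0.094, adjusted p = 0.18).

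Promoters of cell cycle genes are known to carry CCAAT boxes and a CHR element, to which regulators of the G2 and M phases bind. In the 250 bases before the first listed start of each gene (RefSeq, GRCm38.p6), the letters CCAAT occurred on either strand in 21 of the 26 mitosis promoters that were found, or 80.8%, against 34.5% of all 27025 promoters and 37.4% of those of genes that rose at least 2-fold. TTTGAA, the CHR letters, occurred in 9 of them, or 34.6%, against 16.3% of all promoters; the letters of these motifs do not overlap each other. Shown here are the promoters of the 3 called members with the smallest p that hold both, read in the direction of the gene, with the matches in capitals on either strand. Ccnf lies at chr17:24251410-24251659, minus strand, Cdc20 at chr4:118437344-118437593, minus strand and Espl1 at chr15:102296043-102296292, plus strand.
Ccnf: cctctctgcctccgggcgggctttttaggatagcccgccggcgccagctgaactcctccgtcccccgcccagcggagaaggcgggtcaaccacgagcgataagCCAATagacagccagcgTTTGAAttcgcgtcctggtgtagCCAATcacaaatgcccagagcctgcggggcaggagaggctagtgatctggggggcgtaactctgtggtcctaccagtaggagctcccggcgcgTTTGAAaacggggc
Cdc20: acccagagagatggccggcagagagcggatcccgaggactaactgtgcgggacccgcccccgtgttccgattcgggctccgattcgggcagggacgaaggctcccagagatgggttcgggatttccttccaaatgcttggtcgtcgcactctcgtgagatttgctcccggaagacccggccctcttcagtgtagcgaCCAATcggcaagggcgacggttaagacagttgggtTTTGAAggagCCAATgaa
Espl1: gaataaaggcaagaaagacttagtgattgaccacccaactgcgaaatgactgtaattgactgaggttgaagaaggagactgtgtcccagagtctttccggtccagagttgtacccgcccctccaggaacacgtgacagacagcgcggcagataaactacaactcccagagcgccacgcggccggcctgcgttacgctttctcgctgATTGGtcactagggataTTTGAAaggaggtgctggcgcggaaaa
The 3 genes rose by 4.75 ± 0.35 (adjusted p = 7.04e-11), by 2.85 ± 0.26 (adjusted p = 1.62e-09) and by 2.93 ± 0.27 (adjusted p = 2.11e-09), in that order, and Espl1, which no 3 hr mouse held above background, was at least 2.25-fold higher. Cdc20 activates the complex that starts anaphase, and Espl1 is separase, which cuts the link between sister chromatids. A match of letters is a description of the sequence and was not tested as a binding site.

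Genes of the G1/S transition and DNA replication were higher in 24 of 31 members and lower in 4, with a median of 0.86. Cdt1, which loads the replicative helicase, measured -1.01, -1.04, -0.99, -0.75 and -1.11 in the 3 hr mice and 1.87, 1.41, 1.82, 1.86 and 2.07 in the 24 hr mice. Cdt1 rose by 2.78 ± 0.15 (adjusted p = 6.28e-13). Uhrf1, which maintains DNA methylation at forks, rose by 4.36 ± 0.26 (adjusted p = 2.61e-12), the helicase subunits Mcm3 and Mcm6 by 2.03 ± 0.13 (adjusted p = 6.49e-12) and 2.73 ± 0.19 (adjusted p = 1.79e-11), and Rrm1, a subunit of ribonucleotide reductase, by 1.45 ± 0.089 (adjusted p = 3.76e-12). Of the 4 members that fell, Tyms, thymidylate synthase, fell by 1.66 ± 0.31 (adjusted p = 5.39e-05) and Ccnd1, cyclin D1, fell by 1.11 ± 0.42 (adjusted p = 0.022), the latter lost without any 1 of 3 of the 25 mice (adjusted p up to 0.0628). E2f8 had the largest p (-0.31 ± 0.35, adjusted p = 0.444).

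**Figure D2:**
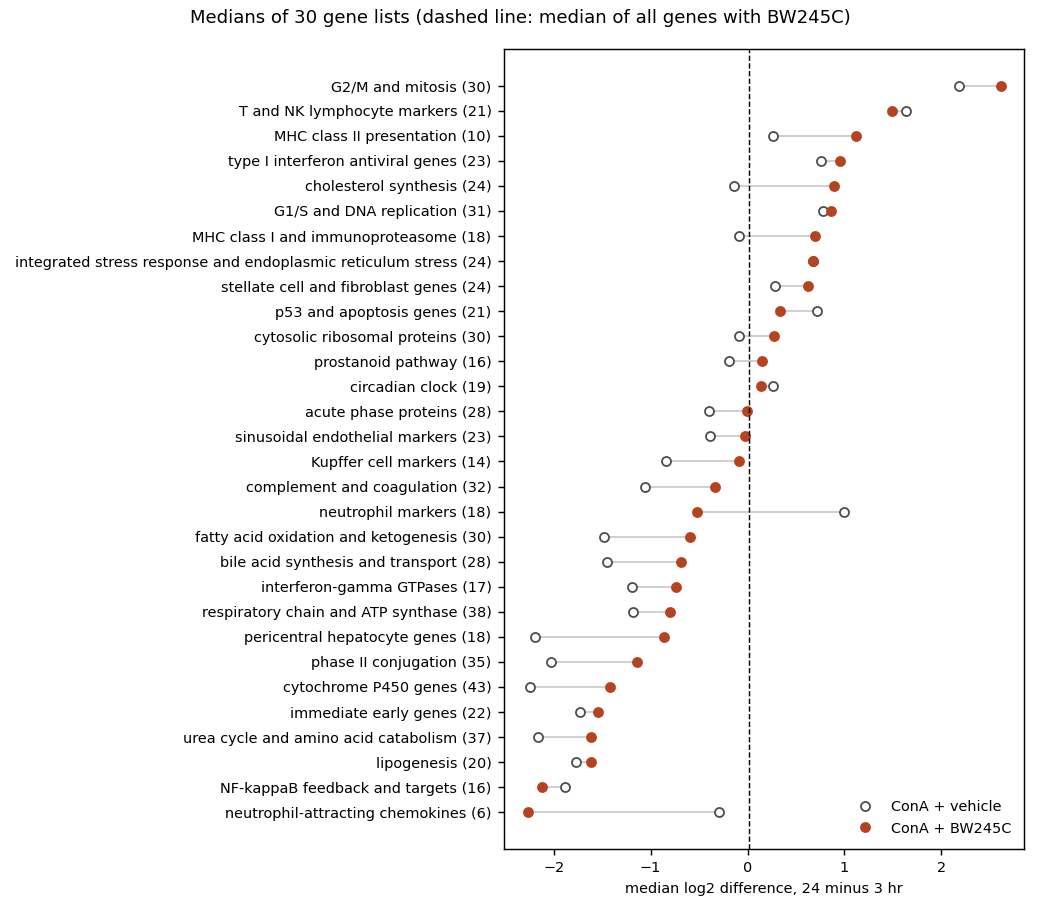
Median log2 difference, 24 minus 3 hr, over the tested members of 30 gene lists after ConA + BW245C (filled circles) and after ConA + vehicle (open circles), with the number of members in brackets and the median of all genes as a dashed line. Mitosis lies furthest to the right, and NF-kappaB targets, neutrophil chemokines and metabolic lists of the hepatocyte lie to the left.

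Interferon-related genes split by family. Antiviral genes that type I interferon induces were higher at 24 hr in 18 of 23 members and lower in 2 (median 0.95), and with slide as a block in 9 and 3. Oas1a, which makes the activator of RNase L, measured 3.31, 3.70, 2.81, 3.33 and 2.87 in the 3 hr mice and 5.81, 5.62, 5.88, 5.84 and 6.28 in the 24 hr mice. Oas1a rose by 2.68 ± 0.19 (adjusted p = 2.59e-11). Ifi44, Irf7, a master factor of the response, and Zbp1, a sensor of Z-form nucleic acid, rose by 2.99 ± 0.23 (adjusted p = 1.06e-10), by 2.02 ± 0.18 (adjusted p = 2.09e-09) and by 1.95 ± 0.18 (adjusted p = 3.15e-09). Ifit1, which binds viral RNA caps, had the largest p (-0.25 ± 0.29, adjusted p = 0.452).

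GTPases that interferon-gamma induces were lower in 11 of 17 members and higher in 3, with a median of -0.73. Ifi47 measured 8.47, 8.32, 8.35, 8.29 and 7.49 in the 3 hr mice and 5.80, 5.68, 5.79, 5.71 and 6.20 in the 24 hr mice. Ifi47 fell by 2.35 ± 0.17 (adjusted p = 4.83e-11), the groups lying far apart. Irgm1, which acts against intracellular bacteria, measured 7.06, 7.12, 6.998, 7.35 and 6.76 in the 3 hr mice and 5.66, 5.68, 5.68, 5.65 and 6.04 in the 24 hr mice. Irgm1 fell by 1.31 ± 0.11 (adjusted p = 7.87e-10). Gbp10, Gbp4 and Iigp1 fell, with differences of -2.20 ± 0.15 (adjusted p = 1.87e-11), -2.36 ± 0.23 (adjusted p = 5.9e-09) and -1.65 ± 0.16 (adjusted p = 6.15e-09). The list as a whole was still high at 24 hr: its median in each mouse lay 2.57 to 3.31 above the untreated mean, compared with 2.68 to 3.60 at 3 hr. Gbp3 had the largest p (-0.13 ± 0.17, adjusted p = 0.519), and passed without 3 hr mouse 5 (log2 -0.33, adjusted p = 0.0244). Members of this family share sequence, so probes may read more than 1 of them.

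The promoters of these GTPases are known targets of the factors that interferon-gamma activates. Among the 10 members with a promoter in the table, 9 held the ISRE letters, GAAA and after any 2 bases GAAA again, on either strand in the 250 bases before the first listed start, or 90.0%, against 3.04% of all promoters. Of the same 10, 6 held the GAS letters TTCNNNGAA, or 60%, against 7.18%; the end of one motif can share GAA with the start of the other. The antiviral list, which moved the other way, held ISRE letters in 7 of 18 promoters, or 38.9%. The 3 called members with the smallest p that hold both are shown in the direction of the gene, matches in capitals: Gbp5 at chr3:142496684-142496933, plus strand, Tgtp1 at chr11:48992247-48992496, minus strand and Irgm2 at chr11:58214727-58214976, plus strand.
Gbp5: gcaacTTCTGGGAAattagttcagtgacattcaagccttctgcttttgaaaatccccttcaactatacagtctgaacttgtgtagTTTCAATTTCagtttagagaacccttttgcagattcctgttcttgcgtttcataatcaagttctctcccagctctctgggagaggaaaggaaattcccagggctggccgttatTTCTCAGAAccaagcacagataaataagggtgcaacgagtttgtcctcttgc
Tgtp1: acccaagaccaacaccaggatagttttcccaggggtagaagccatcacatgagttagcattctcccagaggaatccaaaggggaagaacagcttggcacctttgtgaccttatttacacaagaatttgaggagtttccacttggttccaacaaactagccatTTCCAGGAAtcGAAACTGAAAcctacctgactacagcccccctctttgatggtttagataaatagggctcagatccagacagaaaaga
Irgm2: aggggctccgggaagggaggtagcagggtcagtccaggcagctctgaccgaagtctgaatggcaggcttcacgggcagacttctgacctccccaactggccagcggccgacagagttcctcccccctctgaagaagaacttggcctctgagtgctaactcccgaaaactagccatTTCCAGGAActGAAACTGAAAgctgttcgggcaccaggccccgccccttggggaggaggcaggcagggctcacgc
Gbp5 fell by 2.13 ± 0.26 (adjusted p = 1.59e-07), Tgtp1 fell by 1.27 ± 0.18 (adjusted p = 1.08e-06) and Irgm2 fell by 0.72 ± 0.13 (adjusted p = 2.98e-05). In Tgtp1 and Irgm2 the GAS and ISRE matches lie side by side, and in Gbp5 they lie apart.

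Genes of antigen presentation were mostly higher at 24 hr. Of 10 class II genes 9 were higher, with a median over the list of 1.12. H2-DMa, which loads peptides onto class II molecules, measured -1.09, -0.66, -2.08, -0.78 and -1.03 in the 3 hr mice and 1.08, 0.65, 1.71, 1.22 and 1.40 in the 24 hr mice. H2-DMa rose by 2.34 ± 0.28 (adjusted p = 1.2e-07). H2-DMb1, Cd74, the invariant chain, H2-Ab1 and H2-Oa rose by 1.66 ± 0.21 (adjusted p = 4.09e-07), by 1.33 ± 0.27 (adjusted p = 0.000131), by 1.16 ± 0.24 (adjusted p = 0.000194) and by 0.83 ± 0.17 (adjusted p = 0.000221), while the other member, Ciita, the class II transactivator, did not pass the test (0.26 ± 0.39, adjusted p = 0.566). In the class I and immunoproteasome list 11 of 18 were higher and 2 lower. Psmb8 rose by 2.06 ± 0.16 (adjusted p = 1.23e-10), Tap2 by 1.34 ± 0.11 (adjusted p = 2.09e-10), Tapbp by 1.06 ± 0.11 (adjusted p = 1.49e-08) and H2-M3 by 1.43 ± 0.14 (adjusted p = 5.17e-09). Irf1, the factor that interferon-gamma induces to turn such genes on, measured 8.84, 8.67, 8.82, 8.74 and 8.50 in the 3 hr mice and 4.97, 4.64, 5.01, 5.22 and 5.63 in the 24 hr mice and fell by 3.62 ± 0.15 (adjusted p = 1.16e-14). H2-Q7 had the largest p (0.0049 ± 0.14, adjusted p = 0.976), and was lower with slide as a block (-0.33, adjusted p = 0.0082).

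Metabolic genes of the hepatocyte were lower at 24 hr in nearly every list. Urea cycle and amino acid enzymes were lower in 36 of 37 members and higher in 1, Nags, with a median of -1.62. Otc, an enzyme of the urea cycle, measured 6.67, 6.57, 6.55, 6.57 and 6.48 in the 3 hr mice and 4.35, 4.76, 4.69, 3.76 and 4.28 in the 24 hr mice. Otc fell by 2.20 ± 0.15 (adjusted p = 1.79e-11). Gnmt, which uses up S-adenosylmethionine, Gls2, the liver glutaminase, and Aass, the first enzyme of lysine breakdown, fell, with differences of -2.32 ± 0.14 (adjusted p = 2.12e-12), -2.27 ± 0.15 (adjusted p = 8.71e-12) and -2.47 ± 0.16 (adjusted p = 1.28e-11). The list lay near its untreated level at 3 hr, with medians of -0.26 to -0.0027 in single mice, and -2.08 to -1.32 from it at 24 hr. Ftcd was the member with the largest p and was still lower (-0.37 ± 0.13, adjusted p = 0.0146). Its call was lost without 24 hr mouse 4 (adjusted p = 0.0512), after quantile normalization (-0.13, adjusted p = 0.232) and with the authors' values (-0.16, adjusted p = 0.172).

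Cytochrome P450 genes were lower in 33 of 43 members and higher in 4 (median -1.42). Cyp2f2, a periportal enzyme, measured 8.83, 8.60, 8.54, 8.32 and 8.67 in the 3 hr mice and 6.18, 6.56, 6.96, 6.03 and 6.32 in the 24 hr mice. Cyp2f2 fell by 2.18 ± 0.15 (adjusted p = 2.48e-11). Cyp2b10, the marker of the receptor CAR, fell by 2.69 ± 0.21 (adjusted p = 1.26e-10), and Cyp4f14, Cyp2c38 and Cyp2c39 fell, with differences of -2.49 ± 0.18 (adjusted p = 6.16e-11), -2.81 ± 0.21 (adjusted p = 5.88e-11) and -2.42 ± 0.17 (adjusted p = 3.6e-11). Cyp2c genes are close copies of each other, so their probes may share signal. Cyp3a13 had the largest p (0.0066 ± 0.10, adjusted p = 0.958). In the list of conjugating enzymes 28 of 35 were lower and 3 higher, and Ugt2a3, Ugt2b1 and Gstt1 fell, with differences of -2.31 ± 0.11 (adjusted p = 1.35e-13), -2.69 ± 0.19 (adjusted p = 3.17e-11) and -1.78 ± 0.13 (adjusted p = 4.48e-11).

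Genes of fatty acid and triglyceride synthesis were lower in 19 of 20 members (median -1.62). Thrsp, a lipogenic nuclear protein, measured 7.34, 6.61, 6.33, 7.01 and 6.91 in the 3 hr mice and 2.27, 2.91, 3.74, 2.62 and 3.07 in the 24 hr mice, against 8.22 ± 0.73 (SD, n = 5) untreated, a difference of -3.92 ± 0.30 (adjusted p = 1.03e-10). Elovl6, Scd1, Dgat2, which makes triglyceride, and Insig2, which retains SREBP, fell, with differences of -2.93 ± 0.27 (adjusted p = 3.17e-09), -3.03 ± 0.30 (adjusted p = 7.94e-09), -1.003 ± 0.10 (adjusted p = 1.35e-08) and -1.63 ± 0.16 (adjusted p = 4.48e-09). Gpam, the first acyltransferase of glycerolipid synthesis, was the exception, at 0.0057 ± 0.29 (adjusted p = 0.987). Genes of fatty acid oxidation were lower in 25 of 30, with Acaa1b, a peroxisomal thiolase, at -2.29 ± 0.22 (adjusted p = 3.29e-09). Subunits of the respiratory chain and ATP synthase were lower in 37 of 38 members, with a median of -0.80, and single-mouse medians of -0.26 to -0.17 at 3 hr and -1.16 to -0.72 at 24 hr did not overlap. Atp5o fell by 1.02 ± 0.081 (adjusted p = 1.85e-10) and Ndufb5 fell by 0.92 ± 0.077 (adjusted p = 5.15e-10). The other member, Ndufa8, did not pass the test (-0.22 ± 0.11, adjusted p = 0.0797), but did with slide as a block (-0.37, adjusted p = 0.0451) and without any 1 of 3 of the 25 mice (adjusted p down to 0.0322).

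Cholesterol synthesis went the other way. At 3 hr the list lay -2.12 to -1.04 from the untreated mean by its single-mouse medians, and at 24 hr -1.10 to -0.27. Of 24 members 16 were higher at 24 hr and 4 lower (median 0.89), and with slide as a block 9 and 2. Sqle, squalene epoxidase, measured 2.69, 2.92, 4.02, 3.06 and 1.57 in the 3 hr mice and 5.204, 5.52, 5.57, 5.197 and 4.90 in the 24 hr mice. Sqle rose by 2.43 ± 0.33 (adjusted p = 1.13e-06). Mvd, Msmo1 and Mvk rose by 2.17 ± 0.30 (adjusted p = 9.09e-07), by 1.82 ± 0.24 (adjusted p = 7.56e-07) and by 1.07 ± 0.17 (adjusted p = 7.09e-06).

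In the bile acid list 18 of 28 were lower and 2 higher. Cyp27a1, of the alternative synthesis route, fell by 1.86 ± 0.14 (adjusted p = 1.15e-10), Abcb11, the bile salt export pump, fell by 1.84 ± 0.18 (adjusted p = 4.46e-09), and the uptake carrier Slco1a4 fell by 2.53 ± 0.21 (adjusted p = 4.12e-10). Cyp7a1, the rate-limiting enzyme of bile acid synthesis, was one of the higher members. It measured -3.10, -3.47, -3.08, -1.78 and -0.11 in the 3 hr mice and 0.97, 1.08, 0.66, 0.75 and 0.18 in the 24 hr mice, against 3.66 ± 0.32 (SD, n = 5) untreated. The rise was 3.03 ± 0.71 (adjusted p = 0.000639), and the distance of the 24 hr mice from untreated was -2.94 ± 0.71 (adjusted p = 0.00119). Mouse 5 was the highest at 3 hr and the lowest at 24 hr.

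Genes of the pericentral zone, the cells around the central vein that Wnt signals maintain, did not move together. Sp5 and Tbx3 rose by 4.04 ± 0.31 (adjusted p = 1.26e-10) and by 2.93 ± 0.25 (adjusted p = 5.37e-10), as Rnf43 did. Sp5 was below the background limit in all 3 hr mice and at least 6-fold higher at 24 hr. Glul, glutamine synthetase, and Oat fell, with differences of -2.59 ± 0.16 (adjusted p = 5.46e-12) and -2.03 ± 0.14 (adjusted p = 3.01e-11). Rnf43 measured -2.68, -2.60, -3.10, -2.44 and -1.79 in the 3 hr mice and 1.98, 2.59, 1.98, 2.25 and 2.14 in the 24 hr mice, against 2.80 ± 0.14 (SD, n = 5) untreated. Glul measured 6.52, 6.75, 7.01, 6.74 and 6.75 in the 3 hr mice and 3.92, 4.75, 4.37, 3.68 and 4.09 in the 24 hr mice, against 6.47 ± 0.10 (SD, n = 5). Rnf43 was thus low at 3 hr and near its untreated level at 24 hr, and Glul near its untreated level at 3 hr and low at 24 hr. In the pericentral list 5 of 18 members were higher and 12 lower, and in the periportal list 1 and 15 of 18.

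Of 28 plasma proteins of the acute phase 10 were higher and 10 lower (median -0.0087), near the 36.1% and 33.8% of all genes. Orm3, an orosomucoid, measured 3.19, 3.19, 3.20, 3.14 and 3.16 in the 3 hr mice and 6.20, 6.41, 6.62, 6.29 and 6.35 in the 24 hr mice. Orm3 rose by 3.20 ± 0.12 (adjusted p = 5.62e-15). Its relatives Orm1 and Orm2 rose by 1.53 ± 0.12 (adjusted p = 2.6e-10) and 2.03 ± 0.17 (adjusted p = 7.4e-10); orosomucoid probes may share signal. Saa1, serum amyloid A, measured 10.16, 10.16, 10.33, 10.32 and 10.06 in the 3 hr mice and 10.15, 10.38, 10.40, 10.06 and 10.33 in the 24 hr mice, against 5.19 ± 0.49 (SD, n = 5) untreated, and did not pass the test (0.058 ± 0.16, adjusted p = 0.762). Steap4, a metal reductase induced by cytokines, fell by 3.03 ± 0.17 (adjusted p = 7.46e-13). Hamp2, a copy of hepcidin, measured 8.38, 8.33, 7.77, 8.64 and 7.62 in the 3 hr mice and 2.44, 3.39, 4.28, 2.78 and 3.81 in the 24 hr mice, a 28-fold fall (-4.81 ± 0.36, adjusted p = 7.05e-11), with 3 hr levels near the untreated 8.60 ± 0.51 (SD, n = 5). Smad7 and Id1, both targets of BMP signalling, which governs hepcidin, rose by 2.27 ± 0.18 (adjusted p = 2.97e-10) and 2.62 ± 0.28 (adjusted p = 3.15e-08). Haptoglobin, Hp, had the largest p of the iron list (-0.075 ± 0.12, adjusted p = 0.586), and was higher after quantile normalization (0.26, adjusted p = 0.000471).

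Other genes with the largest falls were Colec10, a collectin of stellate cells, Pax2, a developmental transcription factor, Cux2, a factor of the female liver, and Slc15a2, a peptide carrier. Colec10 measured 3.30, 3.52, 3.40, 3.64 and 3.43 in the 3 hr mice and -0.35, -0.53, -1.14, -1.76 and -0.86 in the 24 hr mice. Colec10 fell by 4.39 ± 0.19 (adjusted p = 2.43e-14). Pax2 fell by 4.31 ± 0.43 (adjusted p = 7.66e-09), with 24 hr levels of 3.01, 3.68, 1.65, 1.33 and 0.76. Cux2 was below the background limit in every 24 hr mouse and at least 7.16-fold lower (-4.27 ± 0.56, adjusted p = 5.85e-07). Slc15a2 measured -1.52, 0.55, 0.44, -0.44 and -0.86 in the 3 hr mice and -3.97, -2.94, -6.59, -3.52 and -6.58 in the 24 hr mice. Slc15a2 fell by 4.35 ± 1.22 (adjusted p = 0.00321), which was lost with slide as a block (-3.19, adjusted p = 0.205); its 24 hr signal was well above background in 2 of 5 mice, and with mice 1, 2 and 4 alone the difference was -3.11, adjusted p = 0.0556.

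Markers of immune cells changed in different directions. T and NK lymphocyte genes were higher in 14 of 21 members and lower in 2 (median 1.495), with single-mouse medians above untreated of 0.70 to 0.92 at 3 hr and 1.98 to 2.52 at 24 hr. Cd3d, of the T cell receptor complex, measured -1.78, -1.25, -2.46, -1.80 and -1.52 in the 3 hr mice and 0.72, 0.19, 1.04, 0.49 and 1.01 in the 24 hr mice. Cd3d rose by 2.46 ± 0.22 (adjusted p = 1.46e-09). Thy1, Cd3g, Cd5 and the homing receptor Ccr7 rose by 2.22 ± 0.15 (adjusted p = 2.21e-11), by 1.99 ± 0.18 (adjusted p = 1.59e-09), by 1.88 ± 0.17 (adjusted p = 1.69e-09) and by 2.25 ± 0.20 (adjusted p = 1.07e-09). Both lower members were Zap70 (-0.77 ± 0.14, adjusted p = 3.47e-05) and Cd4 (-1.07 ± 0.27, adjusted p = 0.00136). Cd247 did not pass the test (0.17 ± 0.30, adjusted p = 0.633).

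Ccr2, the receptor of inflammatory monocytes, was well above background in 1 of 5 mice at 3 hr and in all 5 at 24 hr. It measured -6.23, -4.04, -5.35, -4.77 and -5.09 in the 3 hr mice and -0.95, -0.63, -0.77, -0.85 and -0.67 in the 24 hr mice. The fitted difference of Ccr2 was 4.32 ± 0.30 (adjusted p = 2.14e-11), from 3 hr signals that lay mostly below background. Lgals3 and Chil3, of recruited macrophages, rose by 2.68 ± 0.24 (adjusted p = 1.42e-09) and 2.89 ± 0.34 (adjusted p = 1.04e-07). The Kupffer cell markers Clec4f, Timd4 and Folr2 fell, with differences of -2.66 ± 0.36 (adjusted p = 9.36e-07), -1.55 ± 0.29 (adjusted p = 5.36e-05) and -1.45 ± 0.38 (adjusted p = 0.00168), and the call of Folr2 was lost with slide as a block (-1.46, adjusted p = 0.0643). Vsig4 fell by 2.76 ± 0.61 (adjusted p = 0.000361), also lost with that block (-0.41, adjusted p = 0.672), and C1qa was at 0.04 ± 0.29 (adjusted p = 0.908). Mrc1, of resident macrophages and of endothelium, fell by 1.89 ± 0.23 (adjusted p = 2.19e-07). Over the monocyte and macrophage list 10 were higher and 5 lower of 18, and 7 and 4 with the block. Over the Kupffer cell list 2 were higher and 6 lower of 14, with a median of -0.084, and with the block 0 were higher and 3 lower. Of all genes 36.1% were higher and 33.8% lower, and with the block 26.1% and 28.4%.

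Of 18 neutrophil markers 2 were higher and 6 lower at 24 hr, where 36.1% and 33.8% of all genes were, with a median of -0.52, and of -0.90 with slide as a block. Single-mouse medians were 1.62 to 3.95 above untreated at 3 hr and 2.73 to 4.13 at 24 hr. Retnlg measured 2.37, 3.81, 1.78, 2.83 and 2.30 in the 3 hr mice and 0.91, -0.63, 0.049, 1.19 and 1.56 in the 24 hr mice. Retnlg fell by 2.00 ± 0.37 (adjusted p = 4.42e-05). Mpo, a granule enzyme of immature cells, rose by 2.88 ± 0.37 (adjusted p = 4.22e-07), and Mmp9, a matrix protease, by 2.23 ± 0.44 (adjusted p = 0.000103); both were well above background in 2 of 5 mice at 3 hr and in all 5 at 24 hr. The chemokine receptor Cxcr2 was at -0.12 ± 0.35 (adjusted p = 0.772). Csf3r, the receptor for the granulocyte growth factor, fell by 0.39 ± 0.089 (adjusted p = 0.00046), and Elane, neutrophil elastase, fell by 1.21 ± 0.23 (adjusted p = 6.86e-05). The call of Csf3r was lost after quantile normalization (-0.18, adjusted p = 0.104) and with the authors' values (-0.18, adjusted p = 0.0715). No probe carried the symbol of Ly6g, the defining neutrophil marker, so it was not analysed here.

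**Figure D3:**
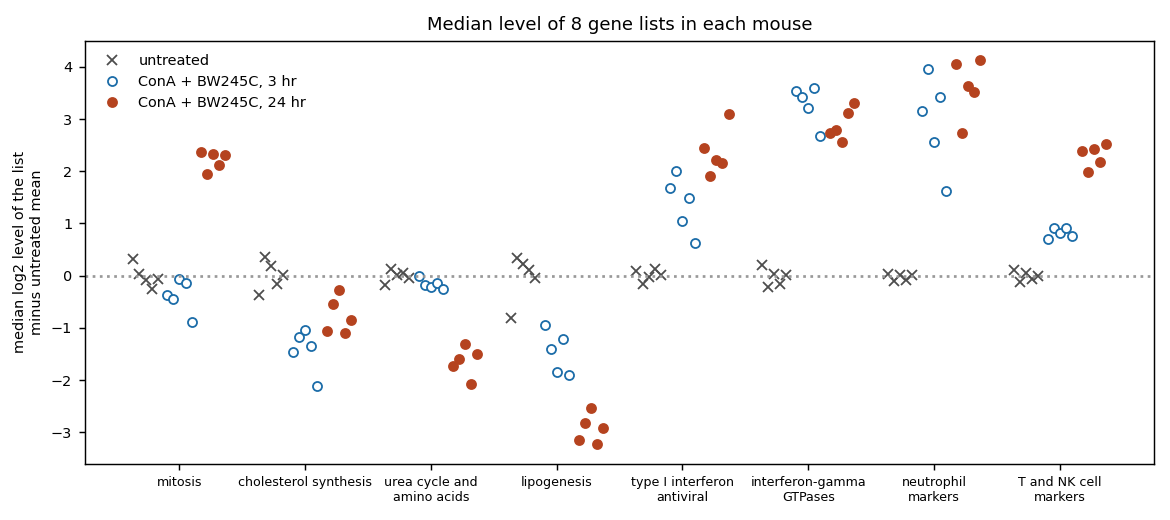
Median log2 level of 8 gene lists in each mouse, relative to the mean of the untreated livers, for untreated mice (crosses), ConA + BW245C at 3 hr (open circles) and at 24 hr (filled circles). Mitosis genes are near 0 at 3 hr and above it at 24 hr, urea cycle genes near 0 at 3 hr and below it at 24 hr, and cholesterol synthesis genes below 0 at 3 hr and closer to it at 24 hr.

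Sinusoidal endothelial markers were higher in 5 and lower in 9 of 23, with a median of -0.028, and with the block in 2 and 7, with a median of 0.028. Of all genes 36.1% were higher and 33.8% lower, and with the block 26.1% and 28.4%. Clec4g, a lectin of these cells, measured 4.74, 4.96, 3.88, 4.97 and 4.38 in the 3 hr mice and 1.33, 1.52, 1.39, 0.052 and 1.13 in the 24 hr mice. Clec4g fell by 3.50 ± 0.25 (adjusted p = 4.54e-11). Ehd3, of endocytic vesicles, Kdr, a receptor of vascular growth factor, and Plpp3, a lipid phosphatase, fell, with differences of -1.54 ± 0.16 (adjusted p = 1.74e-08), -0.93 ± 0.12 (adjusted p = 4.45e-07) and -0.89 ± 0.093 (adjusted p = 1.66e-08). Of the higher members Gpr182, a chemokine scavenger, rose by 1.29 ± 0.18 (adjusted p = 1.74e-06) and Rspo3, which strengthens Wnt signals, rose by 0.96 ± 0.16 (adjusted p = 1.07e-05). Stellate cell and fibroblast genes were higher in 14 of 24 and lower in 5. Pdgfrb, the receptor for platelet-derived growth factor, measured -2.50, -2.94, -1.97, -2.36 and -1.21 in the 3 hr mice and 1.08, 1.23, 1.06, 0.97 and 0.70 in the 24 hr mice. Pdgfrb rose by 3.20 ± 0.21 (adjusted p = 1.14e-11). Vim, Timp1 and Col3a1 rose by 2.37 ± 0.20 (adjusted p = 7.24e-10), by 2.76 ± 0.29 (adjusted p = 2.23e-08) and by 2.02 ± 0.23 (adjusted p = 5.02e-08). Reln, a marker of quiescent stellate cells, fell by 2.51 ± 0.18 (adjusted p = 6.16e-11) and was well above background in 1 of 5 mice at 24 hr, and Lrat, which stores retinol in them, was at 0.069 ± 0.25 (adjusted p = 0.815). Among markers of the hepatocyte itself 9 of 10 were lower, with Alb at -0.40 ± 0.09 (adjusted p = 0.000406) and Apoa1 at -0.12 ± 0.21 (adjusted p = 0.629). Alb lost its call after quantile normalization (-0.054, adjusted p = 0.375). The part of cell numbers in any of the differences above was not tested.

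The circadian clock genes are given at length because livers taken 3 and 24 hr after an injection may come from different hours of the day, and the labels give no clock time. Of the 19 tested, 8 were higher and 2 lower at 24 hr, where 36.1% and 33.8% of all genes were. With slide as a block 5 were higher and 4 lower, where 26.1% and 28.4% of all genes were. Per2, a repressor of the core loop, was below the background limit in every 3 hr mouse, measured -5.39, -6.50, -5.21, -4.86 and -5.32 in the 3 hr mice and -1.83, -1.94, -1.96, -1.83 and -1.41 in the 24 hr mice, and was at least 5.46-fold higher (3.66 ± 0.39, adjusted p = 2.19e-08), with an untreated level of -1.69 ± 0.67 (SD, n = 5). Dbp, an output factor, measured -2.31, -2.20, -2.30, -3.00 and -1.73 in the 3 hr mice and 1.46, 0.31, 1.70, 1.23 and 2.37 in the 24 hr mice. Dbp rose by 3.72 ± 0.54 (adjusted p = 2.17e-06). Per1, Tef and Ciart rose by 1.54 ± 0.29 (adjusted p = 7.18e-05), by 1.41 ± 0.32 (adjusted p = 0.000562) and by 2.14 ± 0.51 (adjusted p = 0.000836), and Nfil3, which opposes Dbp, fell by 0.83 ± 0.15 (adjusted p = 4.61e-05), and Rora, an activator of Arntl, fell by 0.49 ± 0.13 (adjusted p = 0.00182). Ciart was well above background in no 3 hr mouse and in 3 of 5 at 24 hr, and with the normexp background its call was lost (0.28, adjusted p = 0.0757).

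Smaller rises in Cry2 and Nr1d1 (0.60 ± 0.22, adjusted p = 0.018; 1.28 ± 0.54, adjusted p = 0.0373) were lost with slide as a block (0.51, adjusted p = 0.227; 1.02, adjusted p = 0.293). They were lost as well without any 1 of 2 of the 25 mice (adjusted p up to 0.0601) for Cry2 and without any 1 of 6 of the 25 mice (adjusted p up to 0.141) for Nr1d1, and for Nr1d1 with the normexp background (0.58, adjusted p = 0.0950). Arntl, the BMAL1 gene, measured 2.05, 1.79, 1.91, 1.89 and 1.66 in the 3 hr mice and 1.58, 1.67, 1.80, 1.49 and 1.74 in the 24 hr mice and its difference was -0.20 ± 0.25 (adjusted p = 0.477), which passed with the block (-0.81, adjusted p = 0.0479). Cry1, Clock, Npas2, Bhlhe40 and Bhlhe41 were at -0.079, -0.11, -0.81, -0.10 and -0.086, and Nr1d2, Usp2 and Hlf at 0.14, -0.25 and 0.20, with adjusted p of 0.0712 for Npas2 and between 0.403 and 0.845 for the others. Npas2 passed without any 1 of 4 of the 25 mice (adjusted p down to 0.0101) and with slide as a block (-1.57, adjusted p = 0.0336).

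**Figure D4:**
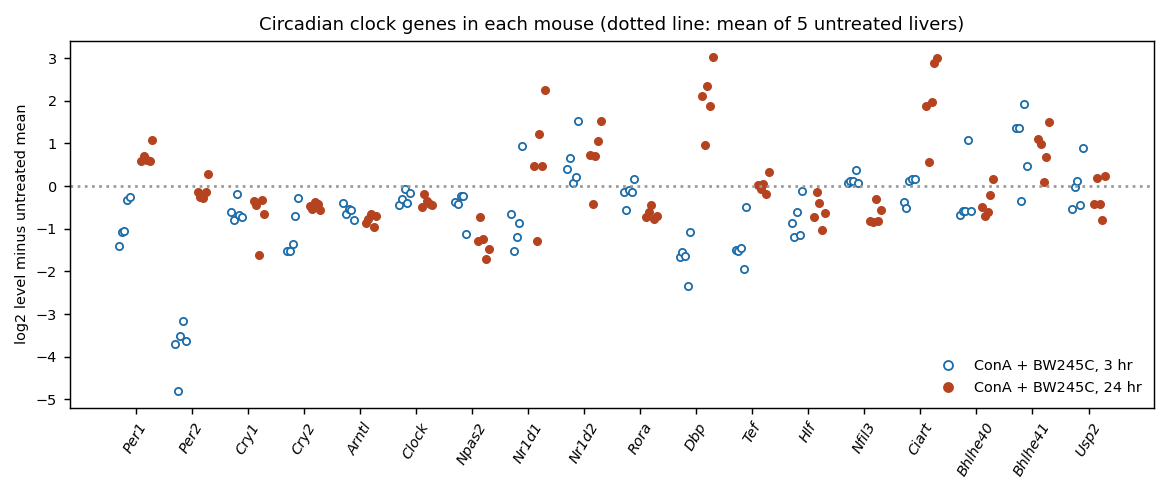
Log2 level of 18 tested clock genes after ConA + BW245C, relative to the mean of the untreated livers, for each mouse at 3 hr (open circles) and 24 hr (filled circles). Per2, Dbp, Per1, Tef and Ciart separate the times, and for Arntl, Cry1, Clock and Bhlhe40 the mice of the 2 times overlap.

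The receptor that BW245C binds could not be followed. Ptgdr and Ptgdr2, the genes of both prostaglandin D2 receptors, were well above background on no array of the series, and Hpgds, the haematopoietic synthase, on 2 untreated arrays only. Ptgds, the other prostaglandin D2 synthase, measured 2.35, 3.15, 1.24, 1.02 and 0.49 in the 3 hr mice and -1.10, -1.40, -0.85, -2.06 and -1.05 in the 24 hr mice, against 1.55 ± 0.35 (SD, n = 5) untreated, a difference of -2.94 ± 0.44 (adjusted p = 3.9e-06). Tbxa2r and Ptgir, the receptors for thromboxane and prostacyclin, rose by 2.96 ± 0.28 (adjusted p = 4.42e-09) and by 2.73 ± 0.26 (adjusted p = 4.81e-09), each above background in 1 of 5 mice at 3 hr and in all 5 at 24 hr, the prostacyclin synthase Ptgis by 1.84 ± 0.21 (adjusted p = 6.22e-08), the thromboxane synthase Tbxas1 by 1.16 ± 0.24 (adjusted p = 0.000189), and Ptger1 by 0.86 ± 0.29 (adjusted p = 0.0117). The calls of Tbxas1 and Ptger1 were lost with slide as a block (0.84, adjusted p = 0.089; 1.06, adjusted p = 0.0897), and Ptger1, above background in no 3 hr mouse and in 3 of 5 at 24 hr, was at -0.054 (adjusted p = 0.595) with the normexp background. The receptors for prostaglandin E2 that raise cAMP both fell, with differences of -0.92 ± 0.18 (adjusted p = 9.93e-05) for Ptger2 and -0.58 ± 0.25 (adjusted p = 0.04) for Ptger4, the latter lost with slide as a block (-0.86, adjusted p = 0.0673) and without any 1 of 6 of the 25 mice (adjusted p up to 0.154). Hpgd, which degrades prostaglandins, fell by 0.31 ± 0.12 (adjusted p = 0.0281) and Ptgs1 rose by 0.42 ± 0.17 (adjusted p = 0.0319), the latter also lost with it (0.37, adjusted p = 0.224) and without any 1 of 4 of the 25 mice (adjusted p up to 0.106). The call of Hpgd was lost without any 1 of 4 of the 25 mice (adjusted p up to 0.102). Ptgs2, the inducible cyclooxygenase, measured -4.00, -3.24, -4.75, -3.65 and -5.99 in the 3 hr mice and -2.93, -5.84, -3.52, -2.61 and -2.38 in the 24 hr mice and did not pass the test (0.87 ± 0.52, adjusted p = 0.14), though it did without 24 hr mouse 2, the lowest of its group (log2 1.47, adjusted p = 0.00362). Neither did Slco2a1, Ptges, Ptges2, Ptges3 and Ptger3, at -0.30, 0.18, -0.21, 0.11 and -0.021. Slco2a1, the prostaglandin uptake carrier, passed without any 1 of 8 of the 25 mice (adjusted p down to 0.0245), Ptges without any 1 of 2 of the 25 mice (adjusted p down to 0.0322) and Ptges2 without any 1 of 2 of the 25 mice (adjusted p down to 0.0149), both of them synthases of prostaglandin E2. Slco2a1 and Ptges2 passed with the block as well (-0.54, adjusted p = 0.0215; -0.40, adjusted p = 0.00183).

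Of genes known to respond to cAMP, 5 of 14 were higher and 6 lower, near the 36.1% and 33.8% of all genes. Pde4b, which degrades cAMP, measured 4.10, 4.39, 4.06, 4.56 and 3.65 in the 3 hr mice and 0.32, -0.26, -0.044, 0.39 and 0.25 in the 24 hr mice. Pde4b fell by 4.02 ± 0.18 (adjusted p = 3.08e-14), and Nr4a2 fell by 1.92 ± 0.15 (adjusted p = 2.41e-10). Rgs2, which damps G protein signals, rose from -2.68 relative to untreated at 3 hr to 0.68 at 24 hr (3.36 ± 0.20, adjusted p = 2.27e-12). Areg, an EGF receptor ligand, was below the background limit in all 3 hr mice and at least 3.69-fold higher at 24 hr (4.06 ± 0.42, adjusted p = 1.49e-08). Crebbp, a coactivator, rose by 1.67 ± 0.087 (adjusted p = 3.39e-13), and Sik1 had the largest p (-0.055 ± 0.17, adjusted p = 0.784).

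The same interval after ConA and vehicle, in other mice, gave 4852 higher and 5479 lower genes, or 32.1% and 36.3% of those tested. Across all 15104 genes the differences of the pair of time courses correlated at 0.8425 (Pearson), a description over genes, which are not independent replicates. The test of the difference between the time courses called 3204 genes, 21.2%, as higher with BW245C and 1484, 9.83%, as lower. With the authors' own array scaling 1434 were higher and 3049 lower, a share of higher calls of 32.0% instead of 68.3%, and the median of this difference over all genes was -0.122 instead of 0.14. For the vehicle course that scaling called 8343 genes higher and 2920 lower, or 74.1% higher instead of 47%. Shifts of whole lists between the time courses are therefore relative to the scaling. With slide as a block these numbers were 541 and 393, or 3.58% and 2.60%, and 740 genes were called in the same direction in both fits. Slide and treatment group overlap in part, so each gene below is given with its adjusted p in that fit as well, marked as with the block.

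**Figure D5:**
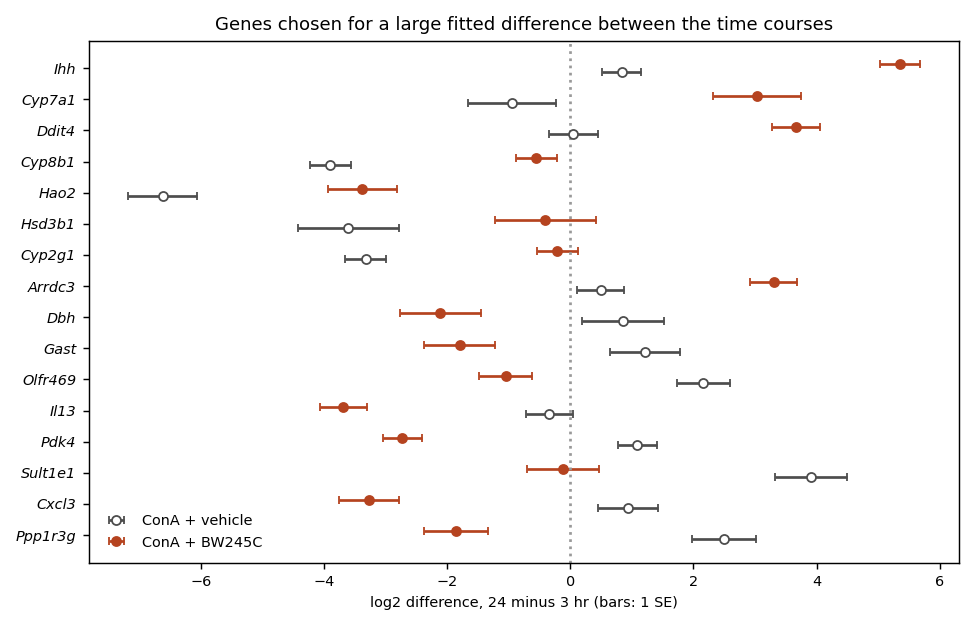
Log2 difference, 24 minus 3 hr, with BW245C (filled circles) and with vehicle (open circles) for 16 genes chosen for a large fitted difference between the time courses, with bars of 1 SE from the fit over all arrays. For the upper 8 the BW245C value lies to the right of the vehicle value, and for the lower 8 to the left.

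In several hepatocyte lists many members passed as higher with BW245C, with smaller median falls than with vehicle. The median difference of the P450 list was -1.42 with BW245C and -2.24 with vehicle, and 27 of 43 members passed the test of the difference as higher with BW245C, against 21.2% of all genes, and 4 with the block, against 3.58%. For complement and coagulation genes the medians were -0.34 and -1.05, with 26 of 32 members passing and 9 with the block. For fatty acid oxidation they were -0.60 and -1.48, with 23 of 30 and 6, for pericentral genes -0.86 and -2.19, with 17 of 18 and 6, and for bile acid genes -0.68 and -1.45, with 20 of 28 and 8.

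Ihh had a fitted difference of 4.52 ± 0.46 (adjusted p = 3.43e-06, adjusted p = 0.000176 with the block). It was at 5.36 with BW245C, of which only the bound of 12.3-fold given above was measured, and was at 0.83 with vehicle, where the means were -3.53 at 3 hr and -2.70 at 24 hr. Cyp7a1 differed by 3.98 ± 1.00 (adjusted p = 0.00592, adjusted p = 0.0146 with the block), with a vehicle difference of -0.95 and vehicle means of -3.43 at 3 hr and -4.38 at 24 hr. Cyp8b1, which sets the ratio of bile acid species, was at -0.56 with BW245C and -3.90 with vehicle, a difference of 3.35 ± 0.47 (adjusted p = 6.99e-05, adjusted p = 0.0103 with the block). Its 24 hr levels with BW245C were 1.05, 1.06, 0.98, 0.05 and 0.60 and its 3 hr levels 1.01, 0.25, 1.63, 1.54 and 2.08, and these overlapped. The Cyp8b1 difference with BW245C passed without 3 hr mouse 2 (log2 -0.82, adjusted p = 0.0279).

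Ddit4, an inhibitor of mTORC1, measured -0.07, 0.95, 0.21, 3.1 and 0.53 in the 3 hr mice and 4.45, 4.99, 4.35, 4.64 and 4.64 in the 24 hr mice. It rose by 3.67 ± 0.39 (adjusted p = 2.78e-08) and was at 0.05 with vehicle, a difference of 3.62 ± 0.56 (adjusted p = 0.000154, adjusted p = 0.0147 with the block); mouse 4 was the highest at 3 hr, and the vehicle means were 5.25 at 3 hr and 5.30 at 24 hr. Arrdc3, an arrestin-domain protein, rose by 3.31 ± 0.38 (adjusted p = 8.18e-08) with BW245C and was at 0.49 with vehicle, a difference of 2.81 ± 0.54 (adjusted p = 0.000894, adjusted p = 0.0332 with the block). Hao2, a peroxisomal oxidase, fell by 3.38 ± 0.56 (adjusted p = 1.38e-05) with BW245C and was at -6.62 with vehicle, a difference of 3.24 ± 0.79 (adjusted p = 0.00496, adjusted p = 0.0343 with the block). Cyp2g1 was at -0.21 against -3.32, a difference of 3.11 ± 0.47 (adjusted p = 0.000137, adjusted p = 0.00464 with the block). Hsd3b1, of steroid synthesis, was at -0.41 against -3.61, a difference of 3.20 ± 1.16 (adjusted p = 0.0398), lost with slide as a block (adjusted p = 0.149) and without any 1 of 12 of the 25 mice (adjusted p up to 0.0816).

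On the lower side stood genes of inflammation and fuel use. Pdk4, which spares glucose by shutting pyruvate dehydrogenase, measured 3.38, 3.78, 4.05, 3.75 and 3.73 in the 3 hr mice and 0.77, 0.21, 1.94, 0.93 and 1.199 in the 24 hr mice. Pdk4 fell by 2.73 ± 0.32 (adjusted p = 9.15e-08). With vehicle it rose by 1.09 ± 0.32 (adjusted p = 0.00431), from means of 1.61 at 3 hr and 2.70 at 24 hr. The difference was -3.81 ± 0.45 (adjusted p = 1.15e-05, adjusted p = 1.91e-05 with the block). Ppp1r3g, a glycogen-targeting subunit, fell by 1.86 ± 0.52 (adjusted p = 0.00327), which was lost with slide as a block (-1.64, adjusted p = 0.139), and rose with vehicle by 2.50 ± 0.52 (adjusted p = 0.000197), a difference of -4.35 ± 0.74 (adjusted p = 0.000332, adjusted p = 0.0127 with the block). Il13, a type 2 cytokine, measured -0.74, -1.10, -1.21, -1.45 and -1.80 in the 3 hr mice and -5.52, -6.45, -4.28, -4.01 and -4.47 in the 24 hr mice. Il13 fell by 3.69 ± 0.38 (adjusted p = 1.48e-08), against -0.34 with vehicle, a difference of -3.35 ± 0.54 (adjusted p = 0.000221, adjusted p = 0.00485 with the block). Cxcl3 was at -3.27 against 0.93, a difference of -4.20 ± 0.69 (adjusted p = 0.000257, adjusted p = 0.00454 with the block).

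Sult1e1, which inactivates oestrogen, was at -0.12 with BW245C and 3.91 with vehicle, a difference of -4.03 ± 0.82 (adjusted p = 0.00136), lost with slide as a block (adjusted p = 0.0603). The remaining 3 genes of the lower side were Olfr469, an olfactory receptor gene, Gast, gastrin, and Dbh, which makes noradrenaline. Dbh measured -1.65, -1.38, -1.72, -1.55 and -2.18 in the 3 hr mice and -2.36, -2.65, -5.73, -2.31 and -5.99 in the 24 hr mice, and its 24 hr values in mice 3 and 5, whose arrays lay on other slides than those of mice 1, 2 and 4, were the lowest. Olfr469 and Gast were also lowest in these mice at 24 hr, at -0.93, -1.46, -3.16, -0.91 and -2.87 and at -0.46, 0.19, -1.90, -0.85 and -2.61. The differences from vehicle were -3.21 ± 0.61 (adjusted p = 0.000773, adjusted p = 0.0202 with the block), -3.02 ± 0.81 (adjusted p = 0.00856, adjusted p = 0.555 with the block) and -2.96 ± 0.94 (adjusted p = 0.0214, adjusted p = 0.946 with the block), in the order Olfr469, Gast and Dbh. With the 24 hr arrays of mice 1, 2 and 4 alone, an alternative chosen after seeing the data, the BW245C differences were -0.28, adjusted p = 0.547 for Olfr469, -1.05, adjusted p = 0.134 for Gast and -0.74, adjusted p = 0.232 for Dbh. Over all 5 mice they were -1.05 ± 0.43 (adjusted p = 0.0336), -1.80 ± 0.57 (adjusted p = 0.00763) and -2.11 ± 0.66 (adjusted p = 0.00725), and with slide as a block -0.066, adjusted p = 0.847, -0.46, adjusted p = 0.546 and -0.92, adjusted p = 0.0178. The calls of Olfr469 and Gast were thus lost with the block, and that of Olfr469 without any 1 of 5 of the 25 mice (adjusted p up to 0.128).

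Cytokines and neutrophil genes lay on the lower side as lists. Of 22 cytokines, 9 had a lower difference with BW245C, against 9.83% of all genes, and 5 had one with the block, against 2.60%. Il4 was at -3.53 against -1.504 with vehicle (difference -2.03 ± 0.22, adjusted p = 4.62e-06, adjusted p = 0.00116 with the block), Il2 at -4.52 against -2.95 (-1.57 ± 0.45, adjusted p = 0.0126, adjusted p = 0.028 with the block) and Ifng at -3.33 against -2.22 (-1.11 ± 0.35, adjusted p = 0.0216, adjusted p = 0.0286 with the block). Il10, which fell with BW245C, was at 1.11 with vehicle (-1.67 ± 0.34, adjusted p = 0.00148, adjusted p = 0.0729 with the block). Both dim cytokines, Il2 and Il10, lost this call when the background was corrected with normexp in place of the scanner's method (-0.21, adjusted p = 0.488, and -0.18, adjusted p = 0.166). Of 18 neutrophil markers 12 were lower, 5 with the block, with list medians of -0.52 and 0.99. Retnlg was at -2.004 against 0.75 (-2.75 ± 0.52, adjusted p = 0.000732, adjusted p = 0.00952 with the block) and Cxcr2 at -0.12 against 1.42 (-1.54 ± 0.49, adjusted p = 0.0224, adjusted p = 0.0389 with the block).

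For mitosis genes the medians were 2.61 and 2.18, and 2 of 30 members passed the test of the difference, both as higher. Lymphocyte markers had medians of 1.495 and 1.63, with 2 of 21 members passing, both as lower. NF-kappaB targets had medians of -2.12 and -1.88, with 1 of 16 members higher and 3 lower by that test. Lipogenesis genes had medians of -1.62 and -1.77, with 4 of 20 members higher and 1 lower. Of all genes 21.2% passed as higher and 9.83% as lower, and the lipogenesis and lymphocyte counts lie near these shares. Above the share of all genes, 14 of 18 class I genes, 25 of 35 conjugation genes, 22 of 37 urea cycle and amino acid genes and 19 of 38 respiratory chain genes passed as higher. With the block 4 conjugation genes, 5 urea cycle and amino acid genes and none of the others did, where 3.58% of all genes did. A member that did not pass this test is not thereby shown to behave alike in the presence and absence of BW245C.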

How the data were processed

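Total liver RNA of 25 mice was hybridised to 1-colour Agilent mouse arrays on 5 slides. The deposited files hold spot intensity from Feature Extraction, version 10.7.3.1 per the file headers and 9.1 per the submitters' processing notes; the authors' scanner software had already subtracted the background. The authors also deposited normalised intensity values, scaled by array, which served as an alternative. Here the processed intensity was put on a log2 scale from the deposited spots, less the 75th percentile of each array, after control spots and outlier spots (93 to 192 per array) were left out. Spots of 1 probe were averaged. Probes well above background on at least 5 arrays were kept (33504 of 55681, 19625 of them with a symbol in the files), and the brightest kept probe stood for each gene. A gene bright in 1 group alone could thus be tested through that group. Levels of different genes come from different probes and are not compared. The sequences of the probes, made against mm9, were not used.

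All 25 arrays entered 1 limma fit with empirical Bayes (limma 3.58.1, R 4.3.3), without a block, and p-values were adjusted by Benjamini-Hochberg over 15104 genes. Every adjusted p in the text is from that fit or from a stated alternative to it, and n is 5 mice in each group; with slide as a block 4 of the 24 hr mice inform the BW245C difference. The labels do not say more of the replicates than that they are separate mice, and replicate numbers are only names. On simulated arrays of 15104 genes for this comparison, 22, 41, 49 and 50 of 50 genes changed by 1.5, 2, 4 and 8-fold were found, and 17 of 14904 unchanged genes were called. The simulation had independent normal noise for each gene, no slide effect and no other changed genes. Its rates therefore do not describe the data, in which most genes were called and no slide held both groups.

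The comparison and the 56 gene lists (1148 genes, of which 1096 were tested) were chosen with earlier results of these data known. Named were the 15 genes with the largest change in each direction and the 8 in each for the difference from vehicle. All had an adjusted p under 0.05 in their own test. The 15 were also required to have groups that do not overlap and a signal well above background on all 5 arrays of a group. This was not required of the 8. From lists came up to 5 members with the smallest p, the one with the largest p, and the clock and prostanoid genes, as well as Tnf, Ifng, Il4, Il6, Il10, Ptgds, Hpgds and both prostaglandin D2 receptor genes. Other list members were named after their values were seen. A few genes that this rule would name are not reported here. Promoter windows are RefSeq's, on GRCm38.p6, and were read with Python 3.11.15. Alternatives were normexp background (offset 50, on the median spot signal), quantile and median scaling, filters, slide as a fixed or random block, the replicate number as a block, other fits and probe rules, the authors' values, stricter thresholds and each mouse left out.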

Additional observations from a re-analysis of the deposited data

Results flagged for a closer look

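In 120 groups of 5 mice, over the genes given mouse by mouse, 10 held a mouse that lay apart from the other 4 by Dixon's test. Chance alone gives about 1 in 20 groups. Of the 5 such values at 3 hr, 4 were mouse 5. It was the lowest for Cxcl9 at 7.86 (others 8.74 to 8.88), for Sele at -2.14 (others -0.99 to -0.54) and for Ifi47 at 7.49 (others 8.29 to 8.47), and the highest for Phlda3 at -2.28 (others -3.32 to -3.04). Mouse 4 was the highest at 3 hr for Zfp36, at 3.43 (others 2.28 to 2.60). At 24 hr, mouse 5 was the highest for Ifi47 at 6.20 (others 5.68 to 5.80), for Irgm1 at 6.04 (others 5.65 to 5.68) and for Per2 at -1.41 (others -1.96 to -1.83). Mouse 2 was the lowest for Gpnmb, at -3.10 (others -1.44 to -0.90), and mouse 4 for Clec4g, at 0.05 (others 1.13 to 1.52). These are log2 levels relative to the 75th percentile of the array.

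For 22 genes the departure of the 24 minus 3 hr difference with BW245C from that with vehicle is given above, and all 22 passed limma's test of that difference. The 8 with the largest departure in each direction were chosen for passing it. Other named genes passed it too, since 17 of the 18 pericentral members did, and are not listed here. On the log2 scale the departure was 4.52 for Ihh, 3.98 for Cyp7a1, 3.62 for Ddit4, 3.35 for Cyp8b1, 3.24 for Hao2, 3.20 for Hsd3b1, 3.11 for Cyp2g1 and 2.81 for Arrdc3. It was -4.35 for Ppp1r3g, -4.20 for Cxcl3, -4.03 for Sult1e1, -3.81 for Pdk4, -3.35 for Il13, -3.21 for Olfr469, -3.02 for Gast and -2.96 for Dbh. Among cytokines and neutrophil genes it was -2.03 for Il4, -1.57 for Il2, -1.11 for Ifng, -1.67 for Il10, -2.75 for Retnlg and -1.54 for Cxcr2. With slide as a block the calls of Hsd3b1, Sult1e1, Gast, Dbh and Il10 were lost.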

How the results depend on the processing

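For BW245C the counts were 5446 higher and 5104 lower, and 2324 and 1612 at 2-fold or more, and leaving out a mouse gave 5094 to 5504 and 4856 to 5163. For vehicle, against 4852 and 5479, they were 8343 and 2920 with the authors' values and 2320 and 2099 at 2-fold or more, and leaving out a mouse gave 4657 to 4874 and 5247 to 5560. The difference between the courses, 3204 higher and 1484 lower, was 541 and 393 with slide as a fixed block, 1547 and 569 as a random block, 1434 and 3049 with the authors' values, 1744 and 633 with 24 hr mice 1, 2 and 4 alone (added after seeing the data), 1615 and 438 at a threshold of 0.01 and 635 and 536 at 2-fold or more. Leaving out a mouse gave 2424 to 3887 and 1018 to 1851. Replicate numbers do not pair the mice, and with them as a block the BW245C counts were 5421 and 5067. Over genes and alternatives, 11543 values kept their side of the threshold, 155 lost a call and 70 gained one. Another 7 turned in sign with a call in at least 1 of the 2 fits. A value without a call in either fit counted as kept, whatever its sign. Of the list medians 2076 stayed near the value given, 97 moved and 11 turned. A list median counted as turned only where the value given exceeded the SD of mice within groups, so smaller medians could change sign uncounted. The mean over probes gave -0.48 for Cflar, 0.69 for Csf1 and 1.01 for Tpx2; slide as a block gave -0.33 for H2-Q7 and 0.055 for the Dbh departure from vehicle; quantile normalization gave 0.26 for Hp, and normexp -0.054 for Ptger1. Medians turned for cytokines with probes above background on all 25 arrays (0.56), for prostanoid genes without a filter (-0.021), with that stricter filter (-0.051) and with slide as a block (-0.0032), for aminoacyl-tRNA synthetases with the authors' values (0.11), and for B cell markers without a filter (-0.30) and with the stricter one (-0.71). For dendritic cell markers they turned with slide as a fixed (0.25) or random block (0.010), over mean probes (0.66) and with mice 1, 2 and 4 alone (0.029). Why each moved was not tested. Dim probes limit the rest, since a gene below background at 1 time has only a bound.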

Other observations

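Proteins that hepatocytes secrete were lower at 24 hr in 19 of 24 members and higher in 1, Apoa4, an apolipoprotein (1.06 ± 0.21, adjusted p = 0.000134), whose call was lost with slide as a block (0.51, adjusted p = 0.205). Serpina6, the cortisol carrier, fell by 4.25 ± 0.28 (adjusted p = 9.29e-12), and Rbp4, the retinol carrier, fell by 0.75 ± 0.093 (adjusted p = 2.27e-07). The growth hormone axis had 14 lower and 1 higher of 17. Ghr, the growth hormone receptor, fell by 1.55 ± 0.14 (adjusted p = 1.1e-09), its feedback gene Socs2 fell by 3.65 ± 0.48 (adjusted p = 6e-07), and Mup3, a urinary protein under its control, fell by 1.74 ± 0.14 (adjusted p = 1.67e-10). Of the glucose genes, 17 of 23 were lower and 3 higher. Pygl, which breaks down glycogen, fell by 1.78 ± 0.12 (adjusted p = 2.29e-11). G6pc, which releases glucose from the cell, rose by 2.74 ± 0.48 (adjusted p = 2.99e-05) and was still -3.03 from untreated at 24 hr. The insulin receptor substrates parted, since Irs1 rose by 2.27 ± 0.21 (adjusted p = 2.23e-09) and Irs2 fell by 2.04 ± 0.18 (adjusted p = 1.23e-09).

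Glycolysis and hypoxia genes were higher in 11 of 23 and lower in 5. Pkm, the pyruvate kinase of tissues other than hepatocytes, rose by 3.27 ± 0.23 (adjusted p = 2.54e-11), Slc16a3, a lactate exporter, by 3.27 ± 0.28 (adjusted p = 9.42e-10), and Slc2a1, a glucose carrier, by 2.05 ± 0.27 (adjusted p = 5.69e-07). Pfkfb3, an activator of glycolysis, fell by 2.76 ± 0.26 (adjusted p = 4.57e-09). In the MAP kinase list 4 of 14 were higher and 8 lower. The phosphatase gene Dusp8 fell by 3.25 ± 0.29 (adjusted p = 1.58e-09) and Dusp6 rose by 1.81 ± 0.16 (adjusted p = 1.79e-09). Of the oxidative stress genes 9 of 16 were lower. Hmox1, heme oxygenase, fell by 1.90 ± 0.19 (adjusted p = 5.97e-09) but stayed 1.501 above untreated. Cat, catalase, fell by 1.43 ± 0.13 (adjusted p = 1.21e-09).

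Among other cells, checkpoint and regulatory T cell genes were higher in 7 of 16 and lower in 3, where 36.1% and 33.8% of all genes were. Havcr2, the TIM-3 gene, rose by 2.39 ± 0.30 (adjusted p = 2.36e-07) and was well above background in 1 of 5 mice at 3 hr, and Cd274, the PD-L1 gene, fell by 1.65 ± 0.26 (adjusted p = 5.84e-06) and lay 3.24 above untreated at 24 hr. Irf8, a factor of dendritic cells and macrophages, fell by 3.24 ± 0.24 (adjusted p = 6.16e-11), and Itgax, the CD11c gene, rose by 2.54 ± 0.28 (adjusted p = 5.26e-08). Ribosomal protein genes were higher in 20 of 30 members, with a median of only 0.27, and with slide as a block in 4, where 26.1% of all genes were. Proteasome subunits were higher in 2 and lower in 6 of 31, where 33.8% of all genes were lower, and with slide as a block 18 were lower, where 28.4% of all genes were.

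Probes without a gene symbol in the files were not named. Of the 13879 such probes above background, 2527 were higher and 6381 lower at 24 hr, or 64.2% called, in a fit over all 33504 kept probes. Of all kept probes 9483 were higher and 12697 lower in that fit, or 66.2% called, so the share called was near that of all probes.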
